A study of Mus musculus with 7 samples.

Results

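Pan-neuronal marker genes are genes that nearly all neurons use, whatever their transmitter. The 10 genes described here, Dcx, Tubb3, Stmn2, Map2, Elavl3, Elavl4, Rbfox3, Nefl, Nefm and Celf4, were taken by name from the 49315 genes counted, and each matched 1 gene identifier. They were read in RNA-seq data of oligodendroglia in primary culture from mice, with 4 libraries of wildtype controls (Klf13-wt) and 3 of Klf13 knockouts (Klf13-ko). All cultures came from the brain of newborn pups of both sexes, were prepared from mixed glia by shake-off with depletion of microglia, and spent 6 days in SATO medium with T3 and T4. Klf13 was deleted throughout the animal, not in oligodendroglia alone. The labels call the libraries biological replicates but do not say how many pups went into a culture or what the libraries of 1 group share. Klf13 itself fell, with 10670 to 12000 normalized counts in control libraries against 802 to 961 in knockout libraries.

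In neurons, Dcx, Tubb3 and Stmn2 switch on early and serve the growing microtubule cytoskeleton. Rbfox3, whose product is the antigen NeuN, and the neurofilament genes Nefl and Nefm are used as markers of later stages. Map2 codes for a protein that stabilizes dendritic microtubules, and Elavl3, Elavl4 and Celf4 code for proteins that bind RNA. Map2 is not strictly neuronal and is known from oligodendrocyte precursors as well.

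For normalized counts, the counts of a library were scaled by its effective size (TMM) to 1 common depth. RPKM values, also scaled in this way, are given per length of the joined exons and are used where levels of different genes are compared. All 18352 genes with enough counts were compared by the quasi-likelihood test of edgeR, p-values were adjusted after Benjamini and Hochberg, and a gene passed at an adjusted p of at most 0.05. Of the 10 marker genes, which had 62 to 48028 counts in a library, all 10 had enough counts for the test. In the Klf13 knockout, 6 of them rose and 4 of these rose at least 2-fold, while 11.6% of all tested genes were higher at the same adjusted p and 3.97% at 2-fold (3.08% were lower at 2-fold, none of them a marker gene). The 4 were Dcx, Stmn2, Rbfox3 and Celf4, and the other 2 were Tubb3 and Map2. No marker gene passed as lower in edgeR's test, where the number at an unadjusted p under 0.05 was 1, or by DESeq2 or limma, where the number that passed was 0 each, against 12.2% of all tested genes in edgeR's test. With the replicate number as a block in edgeR the number that passed as lower was 2, Nefl and Elavl3. Control replicate 4 has no knockout library of the same number and adds nothing to the group difference in that fit. The median log2 fold change of the 10 was 0.73, beside -0.0037 over all tested genes. In 7 of the 10, all knockout libraries lay above all control libraries, which was the case for 18.3% of tested genes.

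**Figure D1:**
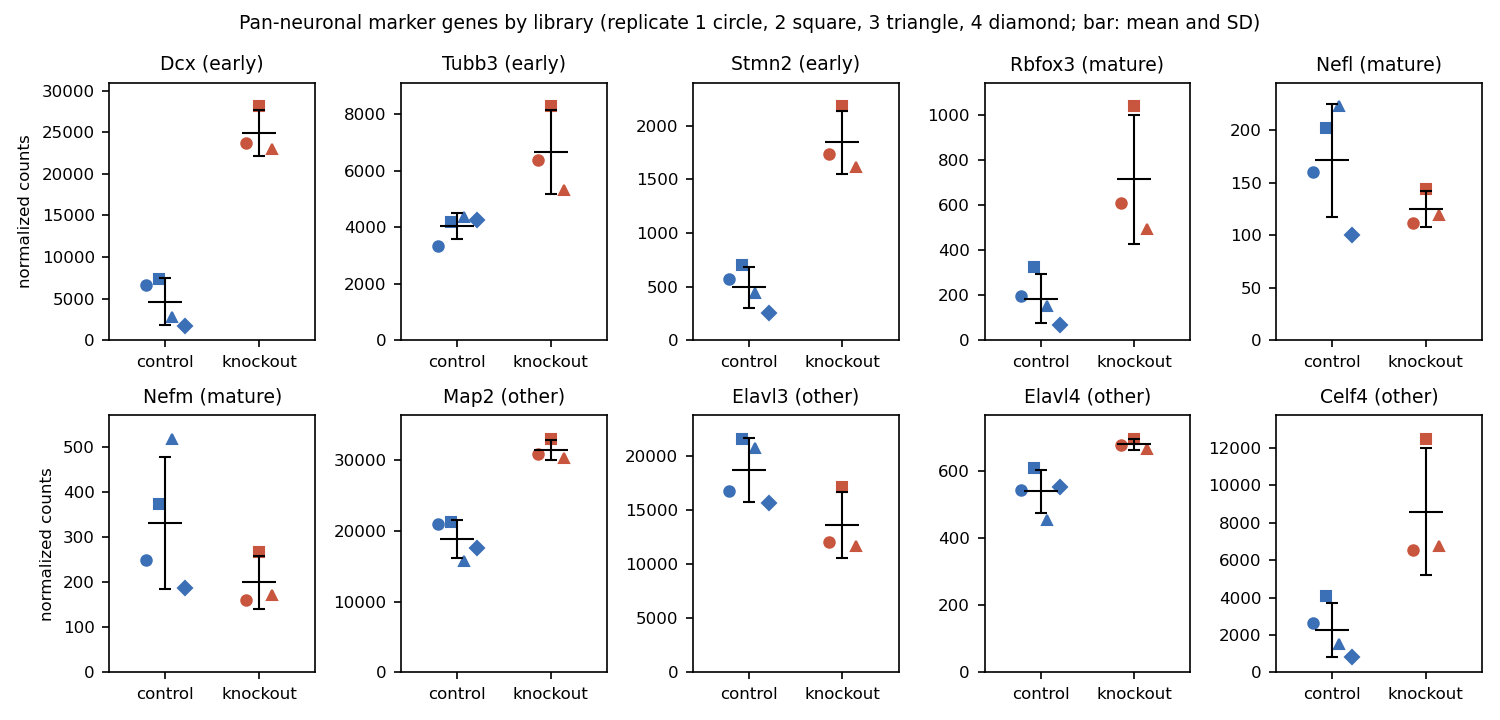
Normalized counts of the 10 marker genes on linear axes from 0, with 1 point per library (4 control, 3 knockout; the symbol gives the replicate) and the mean with its SD. As a ratio of the lowest knockout to the highest control library, the gap is widest for Dcx, Stmn2, Celf4 and Rbfox3. Knockout replicate 2 is the highest knockout library in all 10 panels.

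To show the regions from which some of these transcripts start, the RefSeq promoter windows (GRCm38.p6) of 4 marker genes are printed, 3 of genes that rose and that of Elavl3, which did not. Each window runs in the direction of transcription from 250 bases before to 50 bases after the start, and where a gene had several windows the one nearest to the 5′ end of the gene in the count files was taken. Capitals mark exact matches on either strand to CACCC, the core of the GT boxes that Krüppel-like factors bind, to the GC box GGGCGG, and to TCAGCAC, a part of the element bound by the neuronal gene repressor REST.
Dcx, chrX:143933170-143933469, minus strand: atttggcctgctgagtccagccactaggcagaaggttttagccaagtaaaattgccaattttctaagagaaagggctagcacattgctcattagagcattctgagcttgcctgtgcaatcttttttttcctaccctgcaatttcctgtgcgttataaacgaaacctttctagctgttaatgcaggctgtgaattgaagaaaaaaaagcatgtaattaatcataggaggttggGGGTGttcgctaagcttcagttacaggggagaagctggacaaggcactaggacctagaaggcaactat
Tubb3, chr8:123411303-123411602, plus strand: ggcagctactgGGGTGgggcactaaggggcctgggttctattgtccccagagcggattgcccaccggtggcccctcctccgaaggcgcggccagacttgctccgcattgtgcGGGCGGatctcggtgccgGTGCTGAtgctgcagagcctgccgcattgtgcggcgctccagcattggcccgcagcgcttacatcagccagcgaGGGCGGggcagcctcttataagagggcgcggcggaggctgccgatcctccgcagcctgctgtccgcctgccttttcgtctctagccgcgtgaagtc
Map2, chr1:66175079-66175378, plus strand: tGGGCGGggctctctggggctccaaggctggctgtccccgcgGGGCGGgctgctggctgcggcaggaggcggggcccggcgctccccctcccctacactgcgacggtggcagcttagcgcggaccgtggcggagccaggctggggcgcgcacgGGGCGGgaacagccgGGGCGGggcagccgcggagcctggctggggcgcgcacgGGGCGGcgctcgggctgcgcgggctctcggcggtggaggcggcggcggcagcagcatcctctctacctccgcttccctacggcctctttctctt
Elavl3, chr9:22051974-22052273, minus strand: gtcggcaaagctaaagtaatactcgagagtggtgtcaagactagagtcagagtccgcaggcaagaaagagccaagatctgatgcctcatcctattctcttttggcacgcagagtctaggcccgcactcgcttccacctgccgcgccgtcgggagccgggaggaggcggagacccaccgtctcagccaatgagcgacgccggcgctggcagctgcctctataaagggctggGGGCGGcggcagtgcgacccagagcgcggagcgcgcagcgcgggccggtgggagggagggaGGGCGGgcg
The G+C content was 43.0% for Dcx, 67.3% for Tubb3, 77.7% for Map2 and 65.3% for Elavl3, with a median of 52.7% over all windows. Map2 held 5 GC boxes and Tubb3 and Elavl3 held 2 each, and the printed windows of Dcx and Tubb3 held 1 match to CACCC each. The other window of Dcx held 3 matches to CACCC. In all, 10 windows of 6 marker genes were searched (Dcx, Tubb3, Rbfox3, Map2, Elavl3 and Elavl4). CACCC was found in 6 of these windows and in 57.5% of 32851 windows of all genes, GGGCGG in 3 and in 35.7%, and TCAGCAC in 1, that of Tubb3, and in 5.12%. Such a match is a stretch of letters, and no binding was measured here.

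Dcx codes for doublecortin, a microtubule protein of migrating neuroblasts and young neurons. It lies on chromosome X of GRCm38 from 143855842 to 143933311. Control replicates 1 to 4 had normalized counts of 6693, 7402, 2762 and 1688, and knockout replicates 1 to 3 had 23756, 28124 and 23004; this order of libraries is kept below. Thus the lowest knockout library was 3.11 times the highest control, although the controls differed among themselves by up to 4.39-fold. Dcx had the largest change of the 10 genes, at 2.43 log2 units (standard error 0.49, 95% confidence interval 1.29 to 3.57, adjusted p = 0.0129 in edgeR's test), which is 5.39-fold. Of all tested genes, 99.7% had a lower log2 fold change.

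Stmn2 codes for stathmin-2, which keeps growing axons supplied with free tubulin. It lies on chromosome 3 from 8509360 to 8561606. Control libraries had normalized counts of 570, 705, 438 and 257, knockout libraries of 1735, 2180 and 1617. Both groups were apart by 2.29-fold at their nearest libraries, and the order of the libraries within each group was that of Dcx. The log2 fold change was 1.91 (standard error 0.31, 95% confidence interval 1.18 to 2.63, adjusted p = 0.00610 in edgeR's test).

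Tubb3, on chromosome 8 from 123411424 to 123422015, codes for class III beta-tubulin and has the highest level per length of the early markers. Its normalized counts were 3347, 4196, 4345 and 4250 without and 6380, 8273 and 5324 with the knockout. The controls were tighter than for Dcx and Stmn2, and the groups did not overlap. At 0.72, its log2 fold change (standard error 0.16, 95% confidence interval 0.36 to 1.09, adjusted p = 0.0163 in edgeR's test) was well below those of the other two. Beta-tubulin genes have similar sequences, so that values of single members are uncertain where reads fit several of them. Among the relatives, Tubb2a rose by 0.42 log2 units (adjusted p = 0.0252), and Tubb2b had a log2 fold change of 0.16 (adjusted p = 0.561), both by edgeR's test. Tubb4a, the abundant beta-tubulin of myelinating oligodendrocytes, went down to 45184 ± 1039 (SD, n = 3) from a control mean of 97578 ± 4269 normalized counts (SD, n = 4), a log2 fold change of -1.11 (adjusted p = 7.12e-05 in edgeR's test).

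The markers of later stages did not move together. Rbfox3 codes for a splicing factor of differentiated neurons and lies on chromosome 11 from 118489762 to 118911597. Control libraries had normalized counts of 194, 327, 153 and 66.5, and those of the knockout 608, 1040.0 and 496. Raw counts were 71 to 325 in control and 337 to 1513 in knockout libraries, and the groups did not overlap. It rose by 1.95 log2 units (standard error 0.49, 95% confidence interval 0.79 to 3.11, adjusted p = 0.0286 in edgeR's test), close to the value of Stmn2. Leaving out control replicate 1, control replicate 3, knockout replicate 1 or knockout replicate 2 brought the adjusted p in edgeR's test to 0.0565, 0.0551, 0.0596 and 0.106, with log2 fold changes of 2.00, 1.87, 2.08 and 1.57.

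Nefl and Nefm code for the light and medium chains of neurofilaments, the intermediate filaments of axons. They lie on chromosome 14, Nefl from 68083863 to 68089095 on the plus strand and inside the span of Nefm, which runs on the minus strand from 68082590 to 68124846. Exons of both genes share 1108 bases, 32.8% of the exon length of Nefl and 19.2% of that of Nefm, and the strand setting of the counting is not stated. For Nefl, normalized counts were 161, 202, 223 and 100.2 in control and 112, 144 and 120 in knockout libraries. For Nefm, they were 249.8, 373, 518 and 186 in control and 161, 267 and 171 in knockout libraries. All knockout values of Nefl lay within the control range, and for Nefm 1 lay within it and the other two below. The log2 fold change was -0.45 for Nefl (95% confidence interval -1.09 to 0.20, adjusted p = 0.294) and -0.73 for Nefm (95% confidence interval -1.59 to 0.13, adjusted p = 0.203), both by edgeR's test. With the replicate number as a block, Nefl reached an adjusted p of 0.0498 and a log2 fold change of -0.64 in edgeR's test, and Nefm 0.0585 and -0.92. Counts were few, from 62 to 210 for Nefl and from 89 to 453 for Nefm in a library. The heavy chain gene Nefh was lower still, with 16.8 to 52.3 normalized counts in control libraries, and had a log2 fold change of 0.17 (adjusted p = 0.817 in edgeR's test). Ina, which codes for the neurofilament partner internexin of young neurons, had mean normalized counts of 1307 ± 482 (SD, n = 4) and, in the knockout, 2519.7 ± 672 (SD, n = 3). Its groups did not overlap, and the log2 fold change was 0.95 (adjusted p = 0.0584 in edgeR's test).

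**Figure D2:**
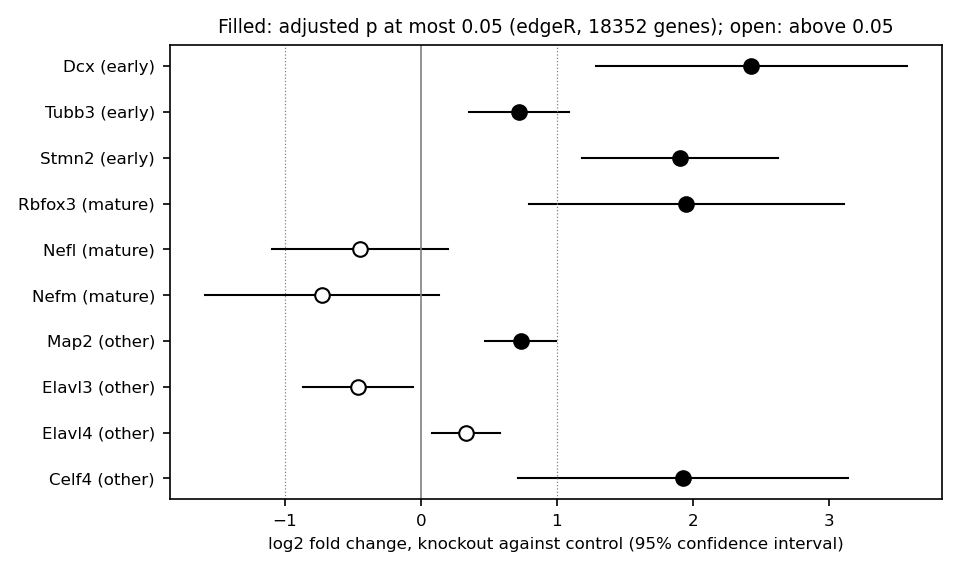
Log2 fold changes of the 10 marker genes, knockout against control, as points with 95% confidence intervals from edgeR (filled where the adjusted p was at most 0.05; dotted lines at -1 and 1). Filled points lie between 0.72 for Tubb3 and 2.43 for Dcx, and the neurofilament genes and Elavl3 lie below 0.

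Map2 had the highest counts of the marker genes in all knockout libraries. The gene lies on chromosome 1 from 66175273 to 66442583. Control libraries had normalized counts of 21017, 21190, 15784 and 17521, and those of the knockout 30886, 33013 and 30344. The latter differed by 1.09-fold at most and stood above all controls. The log2 fold change was 0.73 (standard error 0.11, 95% confidence interval 0.47 to 1.00, adjusted p = 0.00479 in edgeR's test), the smallest adjusted p of the 10 genes.

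Celf4, on chromosome 18 from 25477632 to 25753983, codes for a regulator of splicing and translation in neurons. Normalized counts were 2650.5, 4088, 1501 and 825 in control and 6557, 12501 and 6735 in knockout libraries. Its spread was wide in both groups, with a coefficient of variation of 63.1% in the controls and 39.3% in the knockouts, and still the groups did not overlap. Celf4 rose by 1.93 log2 units (standard error 0.52, 95% confidence interval 0.71 to 3.14, adjusted p = 0.0350 in edgeR's test). Without control replicate 1 or 3 or any one of the knockout libraries, the adjusted p ran from 0.0564 to 0.122 in edgeR's test and the log2 fold change from 1.55 to 2.11.

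Elavl3 and Elavl4, which code for the RNA-binding proteins HuC and HuD, differed. Elavl3 lies on chromosome 9 from 22015005 to 22052023. Its normalized counts in control libraries were 16759, 21563, 20745 and 15629, against 12022, 17091 and 11642 in the knockout. Knockout replicate 2 lay inside the control range and the other knockout libraries below it. The log2 fold change was -0.46 (95% confidence interval -0.86 to -0.05, adjusted p = 0.0977 in edgeR's test). It reached an adjusted p of 0.0241 with the replicate block, 0.0394 without knockout replicate 2 and 0.00478 with the class of ribosomal RNA share as a covariate, all in edgeR's test. Elavl4, on chromosome 4 from 110203722 to 110351909, showed normalized counts of 543, 606, 453 and 550.4 in control and 675, 695 and 663 in knockout libraries. The groups did not overlap, by a narrow margin of 1.09-fold, and the log2 fold change was 0.33 (95% confidence interval 0.08 to 0.58, adjusted p = 0.0605 in edgeR's test). Without control replicate 2 it was 0.40 with an adjusted p of 0.0453, and DESeq2 and limma placed Elavl4 at adjusted p of 0.0329 and 0.0491. The relative Elavl2 had a log2 fold change of 0.61 (adjusted p = 0.101 in edgeR's test) with no overlap between the groups.

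Per exon length, Elavl3 and Tubb3 led in the controls with 61.6 ± 9.64 and 49.1 ± 5.63 RPKM (SD, n = 4 libraries), and their ranges overlapped. Map2 followed with 26.1 ± 3.69, below Tubb3 in all 4 controls and above Celf4, with which its range overlapped. Celf4 and Dcx, at 12.9 ± 8.14 and 8.34 ± 5.09 RPKM, overlapped widely across libraries, although Celf4 stood above Dcx within each. At the low end were Elavl4 (2.27 ± 0.27), Stmn2 (2.00 ± 0.77), Nefm (1.30 ± 0.58), Nefl (1.15 ± 0.36) and Rbfox3 (0.724 ± 0.424), each overlapping with the next. Rbfox3 was the lowest of the 10 genes in all 4 controls. In the knockouts the order changed. Tubb3 led with 81.1 ± 18.2 RPKM (SD, n = 3 libraries) and was the highest in each library, although its range overlapped with that of Celf4. The levels of Celf4 (48.9 ± 19.2), Dcx (44.9 ± 4.97), Elavl3 (44.8 ± 10.04) and Map2 (43.4 ± 1.95) could not be ordered beyond their spread. Stmn2 came next at 7.48 ± 1.20 RPKM, clear of both neighbours. Elavl4 and Rbfox3 overlapped at 2.86 ± 0.07 and 2.79 ± 1.12, and the neurofilament genes Nefl and Nefm, at 0.843 ± 0.114 and 0.784 ± 0.230, were now the lowest. The exon length counts all annotated exons, so that the level of a gene comes out low where some of them are rarely used. Which exons were used was not measured here.

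**Figure D3:**
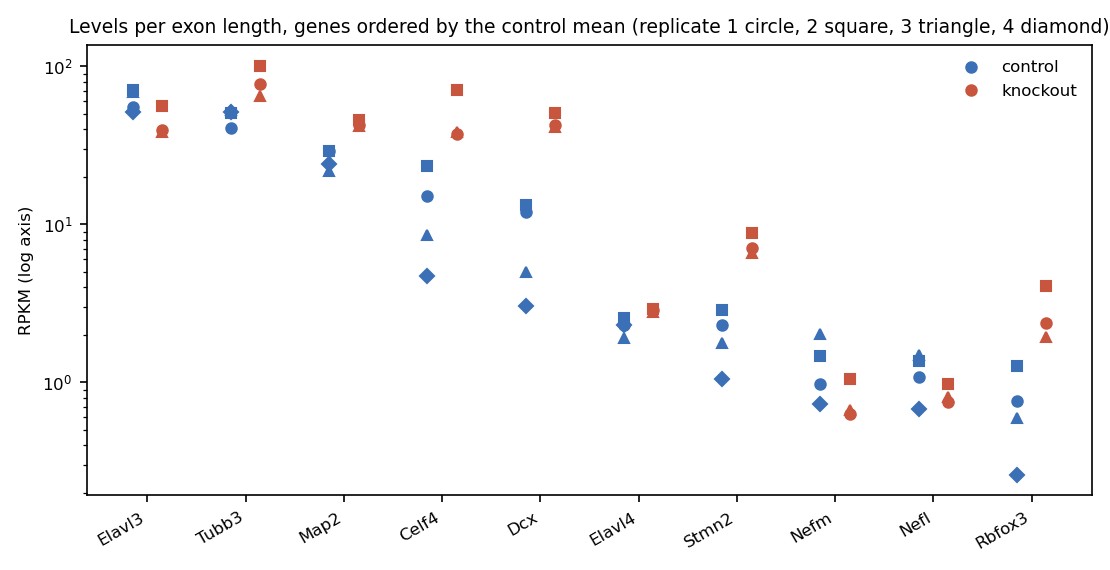
Levels of the 10 marker genes in RPKM on a log axis, 1 point per library, with the genes ordered by their mean in the controls. The genes span from 0.260 RPKM (Rbfox3, control replicate 4) to 101 RPKM (Tubb3, knockout replicate 2).

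Early and late markers were set against each other inside each library, which removes the scaling between libraries. The mean log2 RPKM of Dcx, Tubb3 and Stmn2 exceeded that of Rbfox3, Nefl and Nefm by 3.47, 3.18, 2.66 and 3.42 in control and by 4.76, 4.46 and 4.66 in knockout libraries. Every knockout library was above every control, and the group means, 3.18 ± 0.37 (SD, n = 4 libraries) and 4.63 ± 0.15 (SD, n = 3), differed by 1.45 log2 units. No p is given for this sum over chosen genes. The early mean was 3.11 ± 0.52 log2 RPKM in the controls and 4.90 ± 0.23 in the knockouts without overlap, while the late mean was -0.07 ± 0.64 and 0.27 ± 0.37 and its groups overlapped.

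The knockouts stood apart in ratios to the neurofilament genes and not in all ratios to Rbfox3. The log2 ratio of Dcx to Nefl was 3.48, 3.29, 1.73 and 2.17 in control and 5.83, 5.70 and 5.68 in knockout libraries. That of Dcx to Rbfox3 was 3.99, 3.38, 3.05 and 3.55 in control and 4.17, 3.64 and 4.42 in knockout libraries, and the groups overlapped. The log2 ratio of Stmn2 to Rbfox3 overlapped as well, with 1.59 ± 0.35 in the controls and 1.48 ± 0.33 in the knockouts. For Tubb3 against Rbfox3 the direction was opposite, since the log2 ratio was 6.29 ± 1.01 in the controls and 4.91 ± 0.24 in the knockouts without overlap. Of the 9 pairs of an early and a late gene, the groups did not overlap in 7, including all 6 with a neurofilament gene. With Nefl and Nefm alone as late markers the difference between the group means was 2.31 log2 units, and with summed RPKM values, which Tubb3 dominates, it was 0.64.

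**Figure D4:**
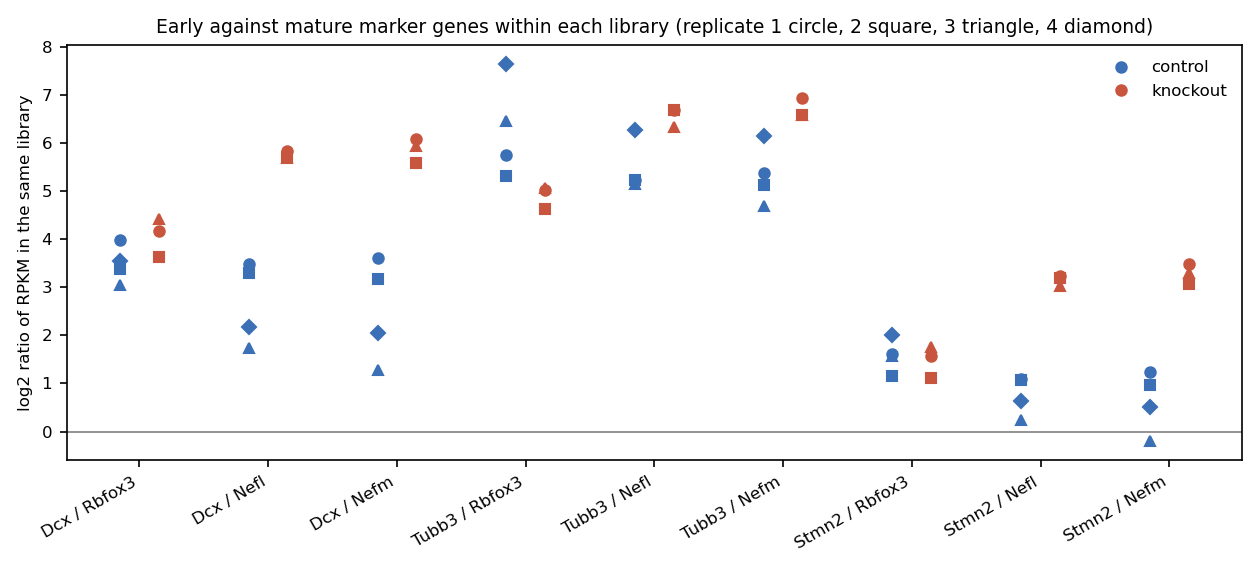
Log2 ratios of RPKM between each early gene (Dcx, Tubb3, Stmn2) and each late gene (Rbfox3, Nefl, Nefm) within the same library, with controls at the left and knockouts at the right of each pair. Knockouts lie above controls in the 6 pairs with Nefl or Nefm, below them in Tubb3 to Rbfox3, and overlap with them in Dcx to Rbfox3 and Stmn2 to Rbfox3.

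The libraries of a group also differed in a way that the marker genes shared. Knockout replicate 2 had the highest value of the knockouts in all 10 genes. In the controls, replicate 2 was the highest in 7 genes and replicate 4 the lowest in 7. Counts on the genes Gm42418, Gm23935 and Lars2 were used as a stand-in for ribosomal RNA reads, which were not measured directly. Replicates 2 of both groups and control replicate 3 had the lowest shares of these counts. They were 6.03% to 7.56% of all counts, against 14.1% to 17.95% in the other 4 libraries. Within the 4 libraries of high share (2 controls, 2 knockouts) Dcx, Stmn2, Rbfox3 and Celf4 differed by 2.80, 2.13, 2.27 and 2.17 log2 units, and within the 3 of low share (2 controls, 1 knockout) by 2.64, 1.97, 2.21 and 2.34. Elavl3, Nefl and Nefm had negative differences in both classes. The differences within classes were not tested.

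By distance in log2 normalized counts over the 7 libraries, each gene centred on its mean, genes outside the 10 were compared with the mean profile of Dcx, Stmn2, Rbfox3 and Celf4, the 4 marker genes that rose at least 2-fold. Among the nearest were Shank1 (root mean square distance 0.069 log2 units), Myt1l (0.087) and Zcchc12 (0.110), with log2 fold changes from 1.93 to 2.15. The members themselves were at 0.141 for Celf4, 0.169 for Rbfox3, 0.225 for Stmn2 and 0.298 for Dcx. Nefm was farthest of the 10 genes at 1.53.

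Other neuronal genes were read from 4 further lists with 63 tested genes in all, of which 36 were higher and 6 lower, with a median log2 fold change of 0.88. As the share to set beside these and the lists below, 11.6% of all tested genes were higher and 12.2% lower. Without knockout replicate 2 the number of higher genes in these lists was 13, beside 850 of all 18604 genes then tested. Without knockout replicate 1 it was 21, beside 1209 of 19047. Of 20 tested genes of the neuronal cytoskeleton and its growth, 10 rose and 4 fell, and the median was 0.36. The number that rose was 6 without knockout replicate 2, and the number that fell was 2 without knockout replicate 1 or 3. Crmp1, a collapsin response mediator of growing axons, had the highest value, with mean normalized counts of 2745 ± 1234 (SD, n = 4) and, in the knockout, 9451 ± 2152 (SD, n = 3; log2 fold change 1.78, adjusted p = 0.0139 in edgeR's test). The most abundant genes of the list were Tuba1a (log2 fold change 0.05, adjusted p = 0.680), Tubb2b and Map1b, which fell by 0.39 (adjusted p = 0.0154, both in edgeR's test). Map1a, a microtubule protein of mature neurons and oligodendrocytes, fell by 1.05 log2 units (adjusted p = 6.56e-04 in edgeR's test), and Map6 and Kif1a, named after their values were seen, were the remaining genes that fell. Among 15 genes for neuronal RNA-binding and splicing proteins 11 rose, and all 15 fold changes were positive, with a median of 1.04. The number that rose was 4 without knockout replicate 2 and 7 without either of the other knockout libraries. Celf3 had the largest value, with normalized counts of 575, 653, 342 and 223 in control and 1701, 2195 and 1494 in knockout libraries (log2 fold change 2.01, adjusted p = 0.00837 in edgeR's test). Celf2 rose by 1.19 and Ptbp2 by 0.26 log2 units (adjusted p = 0.0140 and 0.0324 in edgeR's test). Ptbp2 passed under 11 of 17 alternatives. Its adjusted p in edgeR's test was 0.0633 with the replicate block and 0.0506 to 0.0964 without control replicate 2 or any one knockout library. Celf2 and Crmp1 did not pass without knockout replicate 2, Tubb2a without knockout replicate 1 or 2, and Map1b without any one knockout library. Kif1a did not pass without knockout replicate 1 or 3.

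Of 13 tested transcription factors of neurogenesis 5 rose and 1 fell, while without knockout replicate 1, 2 or 3 the numbers that rose were 1, 0 and 3. Dlx1, a homeobox factor of GABAergic neuron precursors, showed normalized counts of 1424, 2069, 718 and 355 in control and 5093, 7589 and 4436 in knockout libraries (log2 fold change 2.32, adjusted p = 0.0218 in edgeR's test). Sox11, common to young neurons and precursor cells, rose by 1.06 (adjusted p = 0.0286), while Sox4 had a value of 0.35 (adjusted p = 0.429, both in edgeR's test). Sox11 passed under 12 of 17 alternatives, with an adjusted p of 0.0529 to 0.101 in edgeR's test without control replicate 3 or any one knockout library. Dlx1 did not pass without knockout replicate 1 or 2 (adjusted p = 0.0514 and 0.0791 in edgeR's test). St18, which fell by 1.28 log2 units (adjusted p = 5.34e-04 in edgeR's test), is also expressed in oligodendroglia. Among 15 tested genes of synapse, transmitter and other neuronal functions 10 rose and 1 fell, which was Reln, named after its values were seen. The number that rose was 3 without knockout replicate 2 and 6 without knockout replicate 1 or control replicate 3. Calb2, the calcium-binding protein calretinin, showed 1114, 1333, 492 and 209 in control and 6158, 8752 and 5663 in knockout libraries (log2 fold change 3.13, adjusted p = 0.00922 in edgeR's test). Gad1, which codes for an enzyme of GABA synthesis, rose by 1.80 (adjusted p = 0.0333 in edgeR's test) and passed under 12 of 17 alternatives, with an adjusted p of 0.0567 to 0.108 without control replicate 3 or any one knockout library. Thy1 had the lowest value of the list at -0.70 (adjusted p = 0.185 in edgeR's test). The repressor gene Rest ranged from 1784 to 2382 normalized counts in control and from 1462 to 1762 in knockout libraries, without overlap, and a log2 fold change of -0.29 (adjusted p = 0.130 in edgeR's test). A list of 11 genes held Rest, 9 genes of its corepressors and the splicing repressor gene Ptbp1. Of these 4 rose, but 0 without knockout replicate 1 or 2, 0 when scaled by total counts only and 2 with the replicate block. Rcor2 rose most, at 0.42 log2 units (adjusted p = 0.0281 in edgeR's test). The call of Rcor2 was lost without knockout replicate 1 or 2 (adjusted p = 0.0605 and 0.101 in edgeR's test).

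Markers of some other cells moved with the group too. Among all tested genes, 11.6% were higher and 12.2% lower in the knockout in edgeR's test. In RNA from whole cultures, fewer cells of a type and less RNA per cell cannot be told apart. The summed level of 16 neuron genes outside the 10 markers was 85.6 to 114 RPKM in the controls and 202 to 285 in the knockouts, with knockout replicate 2 the highest. Calb2 and Uchl1 carried much of these sums. Calb2 had 2.72 to 17.4 RPKM in control and 73.9 to 114 in knockout libraries, and Uchl1 46.0 to 65.5 and 64.3 to 73.4. The summed level of 10 astrocyte genes was 504 to 696 RPKM in the controls and 990 to 1173 in the knockouts, and 9 of them rose, with a median log2 fold change of 0.90. Of these genes, 2 rose without knockout replicate 2 and 5 without knockout replicate 3. The 10 genes of mature oligodendrocytes all fell, also under each of the 17 alternatives, from 4962 to 5415 RPKM in sum to 1492 to 1752, with a median of -2.80. Of 10 genes of oligodendrocyte precursors 3 rose (1 without knockout replicate 1 or 2), with a median of 0.19, and Pdgfra, their growth factor receptor, had a log2 fold change of 0.07 (adjusted p = 0.451 in edgeR's test). Of 10 genes of newly formed oligodendrocytes 1 rose and 5 fell, and their median was -0.27. The number that fell was 3 with the replicate block and 2 without control replicate 4 or any one knockout library, and the number that rose was 0 without knockout replicate 2. Microglia genes summed to 295 to 1284 RPKM in the controls, the highest in replicate 3, and 314 to 614 in the knockouts, and none of the 10 passed in edgeR's test. The 7 tested genes of fibroblasts and mural cells had a median of -1.84, and 1 fell, Dcn, by 3.05 log2 units (adjusted p = 0.0437 in edgeR's test). Their list summed to 83.3 to 224 and 44.5 to 84.4 RPKM. Among 4 tested endothelial genes the median was -0.47, and 1 fell, Cdh5, by 2.75 log2 units (adjusted p = 0.0483 in edgeR's test). In both genes the groups overlapped, and both calls were lost without control replicate 1, 3 or 4 or knockout replicate 1 or 2. The number of fibroblast and mural genes that fell was 3 with the replicate block and 4 without control replicate 2. The endothelial list summed to 1.18 to 3.31 and 0.940 to 1.45 RPKM, with Cldn5, also named after its values were seen, at 0 counts in all controls. Their part in the values of the 10 marker genes was not tested.

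**Figure D5:**
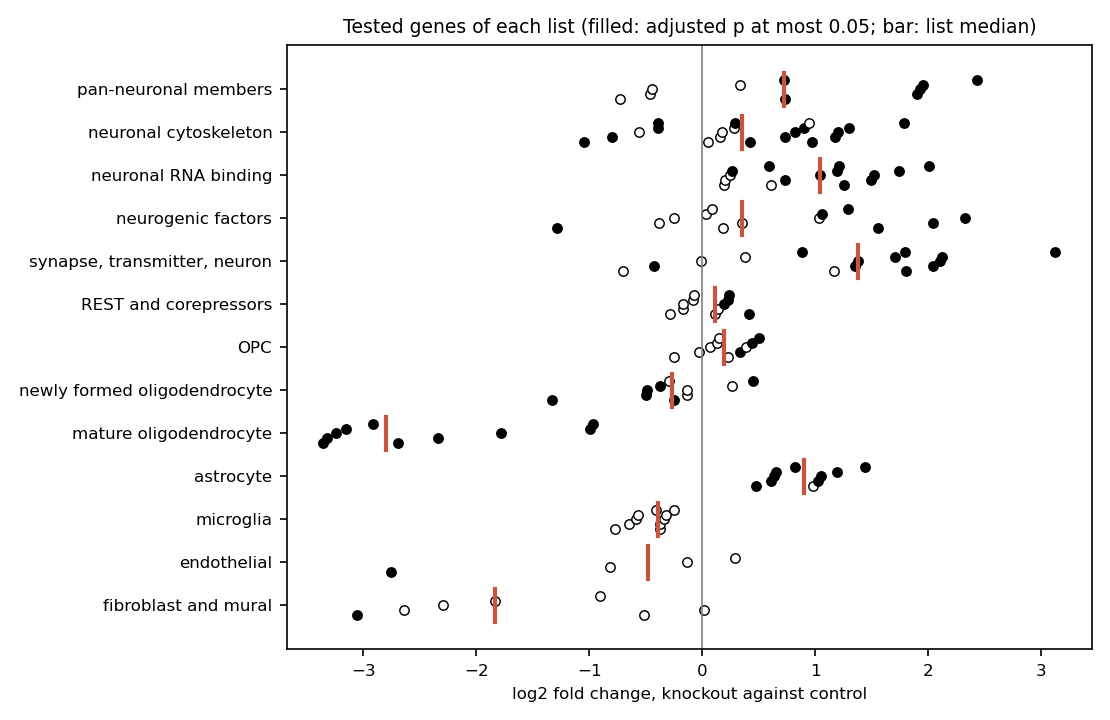
Log2 fold changes, knockout against control, of the tested genes of each list (filled where edgeR's adjusted p was at most 0.05), with the list median as a bar. The medians run from -2.80 for mature oligodendrocyte genes to 1.38 for genes of synapse, transmitter and neuron function, and the 10 marker genes spread from -0.73 to 2.43.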

How the data were processed

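RNA of 7 samples was sequenced with 2 × 150 base paired ends. According to the methods and the submitters' processing notes, Trimmomatic 0.36 served for trimming, STAR 2.5.2b for mapping to GRCm38 and Subread 1.5.2 for counting, and the authors deposited raw counts per gene (unique hits in exons). Annotation release and strand setting are not given in the sources used here. The libraries held 24507471 to 59596479 counts on genes.

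From these counts, genes were filtered with filterByExpr (18352 kept), scaled by TMM and compared by edgeR 4.0.16 (glmQLFit, robust) in R 4.3.3 with the group as its only term. Standard errors were derived from the log2 fold change and the F value. DESeq2 1.42.0 and limma 3.58.1 (voom) were alternatives, as were other scalings, filters, the replicate number as a block and each library left out. In the block fit, control replicate 4 has no partner and adds nothing to the group difference. A term for ribosomal RNA share (counts on Gm42418, Gm23935 and Lars2) above 10% was added after seeing the data. The mean log2 RPKM values of early and late markers used a prior count of 2. The log2 ratios of RPKM between single genes and the summed RPKM values used none.

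The members and lists were chosen with earlier results of these data known. Named from each list were the 3 genes with the highest mean counts and those with the lowest and highest fold change, beside close relatives of the marker genes and genes of the nearest profile; some genes that these rules name are not reported here. Promoter windows on chromosome 18 were left out. Symbols were found for 48970 of 49315 identifiers. The start and end of 9 of the 10 genes were the same in GENCODE M21. Deviations from the group means of libraries with the same replicate number correlated at 0.113, 0.463 and 0.168 across genes. Each was over 0.1, and the numbers were therefore treated as pairing the libraries in the block. The evidence is weak: no source says what the numbers share, and 3 differently numbered pairs were over 0.1 as well, control replicate 4 with knockout replicate 1 (0.197) and 3 (0.136) and control replicate 1 with knockout replicate 3 (0.150).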

Additional observations from a re-analysis of the deposited data

Results flagged for a closer look

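In groups of 4 libraries, chance alone flags about 1 in 20, and 7 of the 72 control groups looked at held a library far from the other 3. Among the marker genes this was Tubb3, where control replicate 1 had 3347 normalized counts and the other controls 4196 to 4345. For Tubb2b it was control replicate 2, at 58812 normalized counts. The other 5 flags were all in control replicate 3, at 5309 for Hdac1, 11106 for Aldoc, 13150 for Csf1r, 21476 for C1qa and 19021 for C1qb, the last 3 being microglia genes. Without control replicate 3, Dcx and Stmn2 still passed in edgeR's test (adjusted p = 0.0241 and 0.0138), and Rbfox3 and Celf4 had log2 fold changes of 1.87 and 1.77 with adjusted p of 0.0551 and 0.0662.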

How the results depend on the processing

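Over 17 alternatives, 151 of 170 values of the marker genes stayed on their side of the threshold and 0 changed direction. Tubb3, Stmn2 and Map2 passed under all 17, Dcx under 16, Rbfox3 under 12 and Celf4 under 11. Without a filter on low counts, 3 marker genes were higher, 1 of them at 2-fold, and 17 other neuronal genes; 34026 genes were then tested, and Dcx had an adjusted p of 0.0675. With the replicate block 2 marker genes were lower, and the block changed no other call of a marker gene. With the class of ribosomal RNA share as a covariate 1 was lower. With each library left out in turn, 4 to 7 marker genes were higher, 2 to 4 at 2-fold and 0 to 1 lower, 13 to 36 other neuronal genes were higher and 4 to 6 lower, and 2167 to 3786 of all genes passed, against 4368. The difference between early and late markers of 1.45 was 1.27 to 1.54 without single libraries, 1.99 without Tubb3, 2.31 without Rbfox3 and 0.64 with summed RPKM. Scalings moved the median of all genes by less than 0.1 log2 units. Nefl and Nefm rest on few counts, and changes within their intervals are not excluded. The cause of these shifts was not tested.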

Other observations

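Relatives of the marker genes, chosen after their values were known, did not all pass the test. Among the stathmin genes, Stmn1 rose from 7824 to 13799.6 normalized counts on average and Stmn3 from 1639 to 3715 (log2 fold changes 0.82 and 1.18, adjusted p = 0.00698 and 0.00723 in edgeR's test), both under all 17 alternatives. Stmn4 had a log2 fold change of -0.55 (adjusted p = 0.138 in edgeR's test), negative under all 17 and past the threshold under 2. In the Celf family, Celf3 and Celf5 rose under all 17 alternatives, Celf5 by 1.49 log2 units, while Celf1, which is widely expressed, had 0.25 (adjusted p = 0.0792 in edgeR's test). Elavl1, the member of the Elavl family that occurs in all tissues, had 4592 and 4683 normalized counts on average and a log2 fold change of 0.03 (adjusted p = 0.827 in edgeR's test). Rbfox1 and Rbfox2, relatives of Rbfox3, rose by 1.25 and 1.04 log2 units (adjusted p = 0.00136 and 0.00296 in edgeR's test), and both passed under all 17 alternatives.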
